A study of Mus musculus with 36 samples.

Results

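The measurements described here are the gene expression profiles of enteric glial cells (EGCs) kept in medium conditioned by healthy colon (H-CM) for 24 h, set against those kept in it for 12 h. All 4 libraries of H-CM glia at 24 h and all 4 at 12 h were used, that is 8 of the 36 libraries of the series, and were chosen by their sample titles. The series has 9 groups of 4 libraries, since unstimulated glia, H-CM glia and glia in tumor-conditioned medium (TME-CM) were each collected after 6 h, after 12 h and after 24 h, and 3′ mRNA tags were counted per gene. The unstimulated glia of 12 h and 24 h, 4 libraries each, were fitted together with the H-CM libraries, so that the change over the same hours without conditioned medium could be subtracted. The glia of all these groups were primary wild-type cells grown as neurospheres from the intestine of C57BL/6J mouse embryos and differentiated in medium with serum. H-CM was medium in which the cells of digested healthy colon had been kept overnight, and unstimulated glia received no conditioned medium. Nothing in the sources used here says that the replicates were separate cultures, so p-values measure the spread between these libraries, which may be technical. Because the libraries are bulk, fewer cells of a type and less RNA per cell cannot be told apart.

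Enteric glia are the support cells of the enteric nervous system. In culture they can divide, and they answer bacterial products and cytokines by making chemokines, which attract leukocytes, and acute phase proteins. Such programs have different clocks: early transcripts are switched on through NF-kB and are held back by inhibitors that NF-kB itself induces, interferon-stimulated genes are switched on by interferon signaling, and secreted proteins of the acute phase come later. Genes of DNA replication and mitosis follow the cell cycle instead and are expressed in dividing cells of any type.

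The H-CM libraries held 3860879 to 5595038 counts at 12 h and 1608018 to 7552509 at 24 h, and the unstimulated libraries 2005239 to 6778936. A single entry, the non-coding RNA Yam1, took 14.9% to 32.6% of the counts of the H-CM libraries at 12 h. The Wilson 95% interval of the highest was 32.6% to 32.7% (counting error only). At 24 h Yam1 took 13.9% to 18.5% in H-CM glia. In unstimulated glia it took 12.6% to 39.9% at 12 h and 12.7% to 30.7% at 24 h. The library of H-CM glia at 12 h, replicate 3, stood apart and carried 92.2% of the squared scores on the first principal component. The library of unstimulated glia at 12 h, replicate 2, carried 83.4% of those on the second. Results that these libraries moved most are given with and without both of them. Of 19 glial markers, 18 reached at least 1 CPM, the count scaled to library size, in H-CM glia at both times, and their summed level was 1151 to 1344 CPM at 12 h and 1123 to 1188 CPM at 24 h. The libraries also held transcripts of smooth muscle (5037 to 7567 CPM over 14 markers in H-CM glia) and of fibroblasts and mesenchyme (5515 to 6859 CPM over 13 markers). In H-CM glia 19 markers of enteric neurons summed to 963 to 1137 CPM and 16 markers of macrophages to 96.3 to 428 CPM. The 12 epithelial markers summed to at most 11.9 CPM in H-CM glia. Which cells of the culture made a response was not tested.

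Between 12 h and 24 h, 1 gene passed the test in H-CM glia. Hmgb2, a chromatin protein of high abundance in dividing cells, rose 2.53-fold. It was the only one of 12732 genes tested (0.00785%) past an adjusted p of 0.05 in edgeR's quasi-likelihood test, and no gene fell. At an unadjusted p under 0.05, 362 genes were higher at 24 h (2.84%) and 430 were lower (3.38%). All 4 libraries of 24 h lay above all 4 of 12 h for 311 genes (2.44%) and below them for 244 (1.92%). Over all genes, 15.5% of the squared distance between the 8 H-CM libraries separated the times, a share that was reached or exceeded at p = 0.229 in an exact permutation test over the 35 splits. With the replicate number as a block the share was 29.9% (p = 0.125, exact permutation test over 8 splits). That is the lowest p that so few splits allow. The median standard error of a gene's log2 fold change was 0.29, so that a change of usual precision had to be large to pass among so many genes.

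The count of genes past the threshold depended on the tool and on the libraries used. DESeq2's Wald test called 19 of 9445 genes (0.201%), 14 higher and 5 lower. Without the libraries that stood apart, edgeR called 7 genes, of which 6 were higher (Hmgb2, Cdk1, Nusap1, Plk1, Prc1 and Top2a) and 1 was lower (Hbegf). All 6 higher genes are known for roles in dividing cells. Leaving out any single library of H-CM glia at 24 h, or replicate 1 or 4 of 12 h, left no call, and leaving out replicate 2 of 12 h gave 2.

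Over the same hours edgeR called none of the 12732 genes in unstimulated glia (0%), where 363 genes were higher (2.85%) and 311 lower (2.44%) at an unadjusted p under 0.05, and DESeq2 called 25 of 9848 (0.254%). Without the libraries that stood apart edgeR called 7 genes there, among them Birc5, Tk1 and Uhrf1 of the cell cycle and the smooth muscle genes Acta2 and Actg2.

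Hmgb2 is a protein-coding gene at chr8:57511907-57515999 on the plus strand of mm10. Its level in H-CM glia at 12 h was 13.2, 18.2, 15.7 and 17.9 CPM in replicates 1 to 4. At 24 h it was 41.3, 37.6, 40.2 and 46.8 CPM. The groups did not overlap, and the lowest value of 24 h was above the highest of 12 h by more than the range within either group. The log2 fold change was 1.34 (SE 0.22, n = 4 and 4, adjusted p = 0.0315, edgeR).

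Unstimulated glia held Hmgb2 at 21.9, 33.8, 18.6 and 17.4 CPM at 12 h and at 31.6, 27.5, 34.8 and 36.6 CPM at 24 h. Those groups overlapped through replicate 2 of 12 h, one of the libraries that stood apart. The change in unstimulated glia was 0.53 (SE 0.22, adjusted p = 0.841, edgeR). The difference between both changes was 0.81 (SE 0.31, unadjusted p = 0.0147, adjusted p = 0.999955, edgeR). A larger change of Hmgb2 in H-CM glia than in unstimulated glia was therefore not shown.

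**Figure D1:**
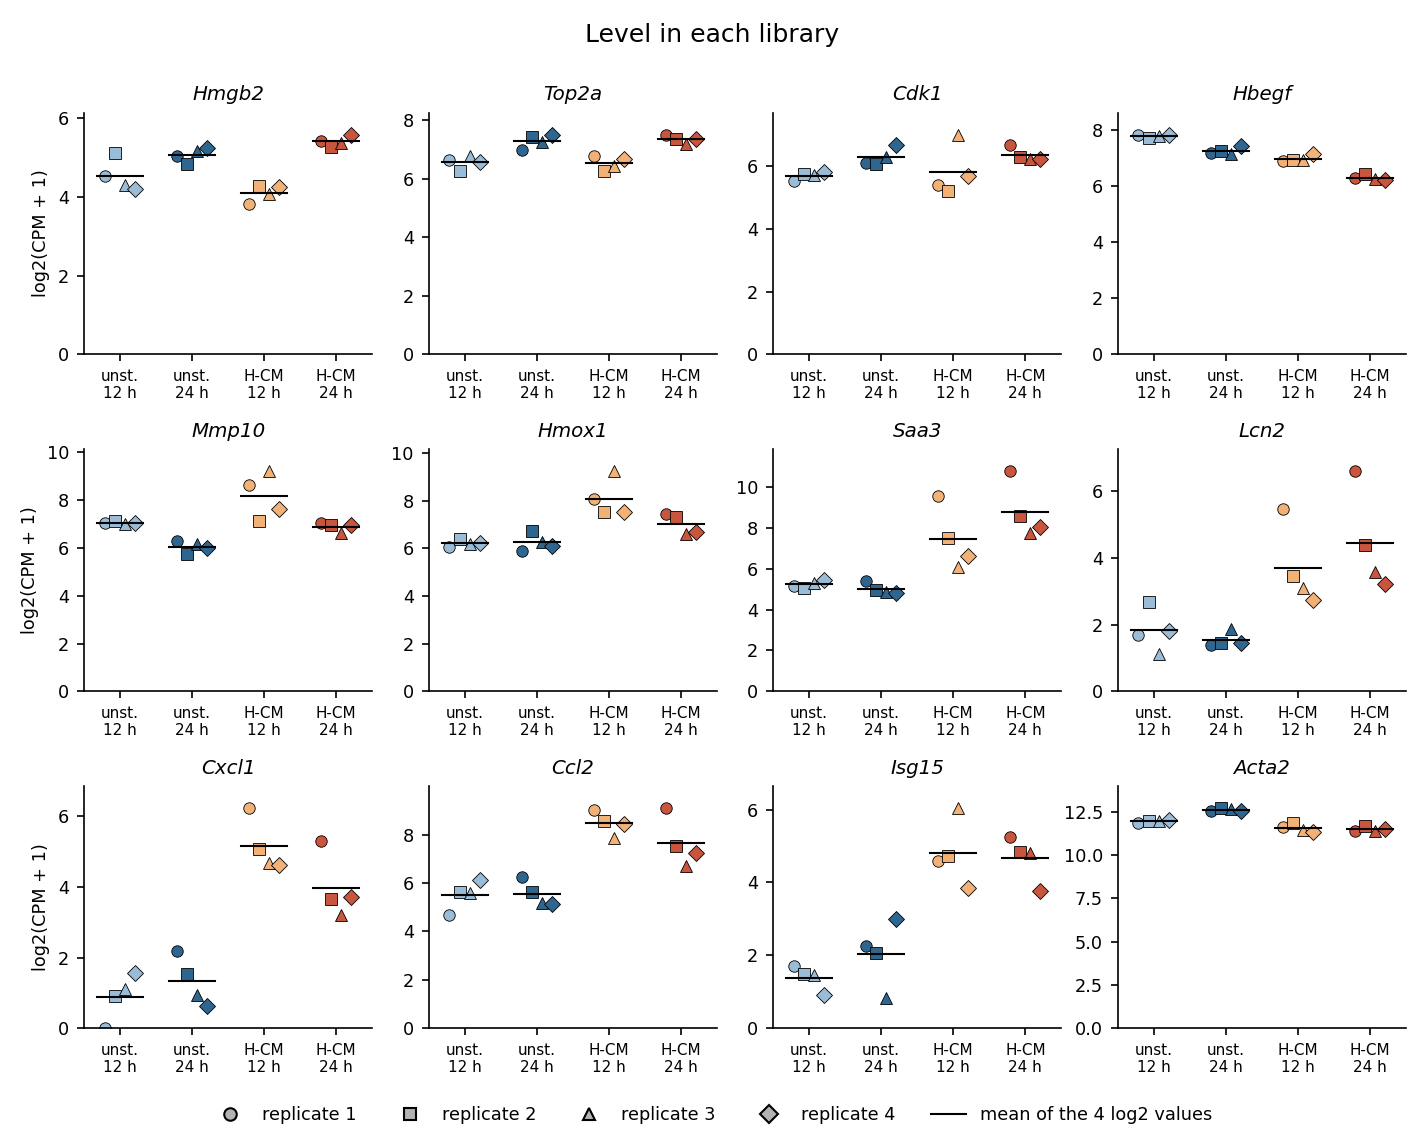
Level of 12 genes in each of the 16 libraries, as log2(CPM + 1), for unstimulated and H-CM glia at 12 h and 24 h; symbols mark replicates 1 to 4 and lines the mean of the 4 log2 values. Hmgb2 and Top2a are higher in every H-CM library of 24 h than in any of 12 h, Hbegf is lower in every one, and for Saa3 and Lcn2 replicate 1 stands above the others at both times.

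The promoters of Hmgb2 and of Top2a, the DNA topoisomerase that untangles chromosomes before division, are shown because edgeR called both genes when the libraries that stood apart were left out. Each line gives the 250 bases before the RefSeq start of the gene (GRCm38.p6), 5′ to 3′ on the gene's strand, for Hmgb2 chr8:57511593-57511842 on the plus strand and for Top2a chr11:99024190-99024439 on the minus strand. Capitals mark CCAAT boxes (CCAAT) and the cell-cycle element called CHR (TTTGAA), each on either strand.
Hmgb2: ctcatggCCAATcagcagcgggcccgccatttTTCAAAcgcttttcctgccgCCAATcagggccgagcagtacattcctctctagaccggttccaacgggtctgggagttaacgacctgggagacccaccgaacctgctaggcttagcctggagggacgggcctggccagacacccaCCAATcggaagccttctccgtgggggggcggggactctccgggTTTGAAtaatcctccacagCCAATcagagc
Top2a: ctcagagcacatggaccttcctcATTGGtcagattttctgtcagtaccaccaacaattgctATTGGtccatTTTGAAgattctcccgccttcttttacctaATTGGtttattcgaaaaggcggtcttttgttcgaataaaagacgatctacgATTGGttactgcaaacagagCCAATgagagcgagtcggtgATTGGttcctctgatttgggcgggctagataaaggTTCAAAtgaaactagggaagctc
Hmgb2 held 4 CCAAT boxes and Top2a held 6. CCAAT was found in 23 of 30 promoters of mitosis genes (76.7%) against 34.5% of all 27025 promoters of the same length. TTTGAA was found in 9 of 30 (30%) against 16.3%. These matches describe letters in a window and are not evidence that a factor was bound.

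Most cell-cycle genes had a log2 fold change above 0 from 12 h to 24 h, in H-CM glia and in unstimulated glia. The list held 69 genes that could be tested, of which 34 act in DNA replication and S phase and 35 in mitosis. In H-CM glia, 65 of 69 had a log2 fold change above 0, with a median of 0.64, against 48.8% of all genes and a median of -0.01. In unstimulated glia, 66 of 69 were above 0 (50.4% of all genes), with a median of 0.62. In H-CM glia 33 of the 69 were higher at an unadjusted p under 0.05, and for 22 of the 69 all libraries of 24 h lay above those of 12 h (2.84% and 2.44% over all genes). In unstimulated glia these counts were 36 and 28 of the 69, against 2.85% of all genes and 333 of 12732. None of the 69, of which Hmgb2 is not one, passed the adjusted threshold of edgeR with all libraries.

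The summed level of the 69 genes was 1263 to 1561 CPM in the H-CM libraries of 12 h and 1986 to 2444 CPM in those of 24 h. In unstimulated glia the sums were 1341 to 1558 CPM and 2110 to 2489 CPM. The times did not overlap in either medium, and at each time the ranges of both media did. No gene of the list was called between H-CM and unstimulated glia at 12 h or at 24 h, and the median difference between both time changes was -0.10. For the 34 genes of S phase the median change in H-CM glia was 0.41, with 30 above 0, and for the 35 genes of mitosis it was 0.71, with all 35 above 0. In unstimulated glia the medians were 0.60, with 31 above 0, and 0.67, with all 35 above 0.

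Top2a measured 108, 75.9, 84.8 and 101 CPM in H-CM glia at 12 h and 181, 164, 146 and 161 CPM at 24 h. All libraries of 24 h were above those of 12 h. The log2 fold change was 0.81 (SE 0.16), with an adjusted p of 0.158 in edgeR and 0.00109 in DESeq2, and that of unstimulated glia was 0.73. Nusap1, which bundles spindle microtubules, went from 17.8, 16.1, 23.0 and 24.5 CPM to 41.1, 32.2, 45.8 and 44.6 CPM, with no overlap (log2 fold change 1.0, adjusted p = 0.234 in edgeR and 0.0122 in DESeq2). Cenpf, a kinetochore protein, went from 18.1, 18.0, 13.4 and 24.5 CPM to 42.0, 32.2, 42.9 and 48.4 CPM (1.14, adjusted p = 0.255 and 0.0220). For Racgap1, which is needed for cytokinesis, the change was 1.14 on the log2 scale (adjusted p = 0.234 in edgeR and 0.0169 in DESeq2).

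The value of Cdk1, the kinase that drives entry into mitosis, rested on the library that stood apart. Cdk1 measured 41.2, 36, 128 and 51.0 CPM in H-CM glia at 12 h and 101, 77.7, 74.3 and 74.9 CPM at 24 h. Replicate 3 of 12 h was above every library of 24 h, and the other 3 were below them. With all libraries the log2 fold change was 0.36, and without both libraries that stood apart it was 0.94 (adjusted p = 0.0363, edgeR). Mki67, a protein of proliferating cells, had 0.39 in H-CM glia (0.17 without replicate 1 of 24 h) and 0.25 in unstimulated glia.

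**Figure D2:**
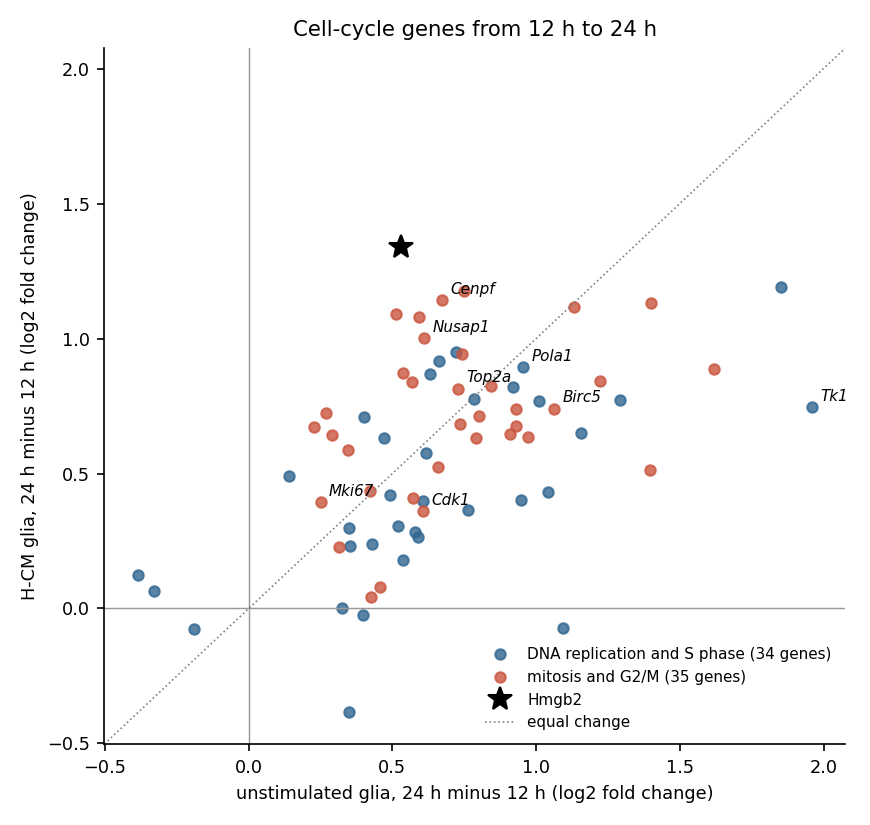
Log2 fold change from 12 h to 24 h of the 69 cell-cycle genes and of Hmgb2 in unstimulated glia (x axis) and in H-CM glia (y axis), with points for genes and a dotted line for equal change. Most points lie above 0 on both axes, with medians of 0.62 and 0.64, and Hmgb2 lies above the dotted line at 0.53 and 1.34.

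The genes lower at 24 h among the calls of DESeq2 were Hbegf, Mmp10, Hmox1, Skil and the lincRNA 5430416N02Rik. They are named here because DESeq2 called them, which was seen after their values were known, and edgeR called none of them with all libraries. Hbegf, a growth factor that binds the EGF receptor, measured 119, 122, 123 and 143 CPM at 12 h and 77.7, 85.7, 76.7 and 74.9 CPM at 24 h in H-CM glia. The groups did not overlap (log2 fold change -0.69, adjusted p = 0.158 in edgeR and 4.15e-05 in DESeq2). In unstimulated glia it measured 230, 209, 220 and 227 CPM and then 144, 151, 140 and 173 CPM, a log2 fold change of -0.54. H-CM glia therefore had less Hbegf than unstimulated glia at both times, by -0.81 at 12 h (adjusted p = 0.00270, edgeR) and -0.95 at 24 h (adjusted p = 0.000449).

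Mmp10, a matrix metalloprotease, measured 395, 140, 586 and 199 CPM in H-CM glia at 12 h and 131, 123, 98.1 and 122 CPM at 24 h. The libraries of 24 h were all lower, but those of 12 h ranged widely and the highest was the library that stood apart. The log2 fold change was -1.48 with all libraries and -1.04 without both libraries that stood apart. Unstimulated glia had -1.01, from 126 to 141 CPM down to 52.8 to 76.2 CPM. Hmox1, which degrades heme and is a target of NRF2, measured 271, 183, 600 and 182 CPM at 12 h and 173, 159, 95.4 and 102 CPM at 24 h (-1.22, adjusted p = 0.388 in edgeR and 0.0289 in DESeq2). The 600 CPM of Hmox1 are again those of the library that stood apart, and without that library alone, or without both, the change was -0.67. Hmox1 in unstimulated glia stayed between 58.7 and 104 CPM over both times.

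For 3 further genes that DESeq2 called, all libraries of 24 h lay on one side of those of 12 h. Skil, an inhibitor of TGF-beta signaling that TGF-beta induces, went from 70.2, 63.0, 95.7 and 60.5 CPM to 41.8, 41.2, 38.8 and 34.1 CPM in H-CM glia (-0.88, adjusted p = 0.219 in edgeR and 0.00884 in DESeq2), and had -0.60 in unstimulated glia. Fzd2, a Wnt receptor, went the other way, from 70.2, 106, 81.1 and 96.4 CPM to 172, 137, 138 and 131 CPM (0.71, adjusted p = 0.234 in edgeR and 0.00884 in DESeq2), and had 0.13 in unstimulated glia, which held 126 to 165 CPM over both times. The lincRNA 5430416N02Rik, of low level, went from 10.8, 9.39, 16.4 and 6.17 CPM to 1.08, 4.22, 4.02 and 1.65 CPM (-1.86, adjusted p = 0.331 in edgeR and 0.0372 in DESeq2). Its exons overlap those of genes on the opposite strand, and whether counting used strand is not given in the sources used here, so its counts are uncertain.

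For Hmox1 the medium response itself was called at 12 h and not at 24 h. It was 4.20-fold higher in H-CM glia than in unstimulated glia at 12 h (adjusted p = 0.00329, edgeR), and 1.72-fold at 24 h (adjusted p = 0.582). The difference between both responses was -1.28 on the log2 scale (unadjusted p = 0.0101, adjusted p = 0.999955), so a fading of the response was not shown at the threshold. Without replicate 3 of H-CM glia at 12 h that difference was -0.74. It was called without the filter on low counts (-1.28, adjusted p = 0.00272, edgeR), a setting that hardly used a gene's own spread. Without the libraries that stood apart Hmox1 was called at both times, with 1.58 at 12 h (adjusted p = 0.00229) and 0.79 at 24 h (adjusted p = 0.0457). Slc7a11, the cystine transporter and another target of NRF2, was called at 12 h with 2.04 (adjusted p = 0.00708) and had 0.70 at 24 h (adjusted p = 0.918). Its levels in H-CM glia were 19.6, 14.9, 15.4 and 14.4 CPM and then 14.3, 9.85, 5.67 and 7.16 CPM, with no overlap.

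The response to healthy medium, taken as H-CM minus unstimulated glia at each time, called genes in both directions, and its calls at both times overlapped in part. At 12 h, 83 genes were called (0.652%), 61 of them higher (0.479%) and 22 lower (0.173%). At 24 h, 95 were called (0.746%), 52 higher (0.408%) and 43 lower (0.338%). Without both libraries that stood apart the counts were 60 at 12 h (38 higher and 22 lower) and 228 at 24 h (108 higher and 120 lower). In a fit of the 8 libraries of 24 h alone lower genes were also the more frequent, with 143 against 137 higher, so which direction held more genes at 24 h depended on the libraries fitted. Leaving out single libraries gave 42 to 95 calls at 12 h, the fewest without replicate 3 of the unstimulated glia of 12 h, and 46 to 71 at 24 h, the fewest without replicate 1 of the H-CM glia of 24 h. The calls shared 44 genes, which is 53% of those of 12 h and 46.3% of those of 24 h, and all 44 had the same direction. Neither the time change in H-CM glia nor the difference between both responses was called for any of the 134 genes called at either time.

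Genes chosen by their call at one time had a median nearer to 0 at the other, whichever time chose them. The 61 higher genes of 12 h had a median log2 fold change of 2.50 at 12 h and 1.95 at 24 h, and 54 of them were nearer 0 at 24 h. The 52 higher genes of 24 h had 2.26 at 24 h and 2.02 at 12 h, and 26 were nearer 0 at 12 h. The 22 lower genes of 12 h went from -0.99 to -0.81, and the 43 lower genes of 24 h had -1.0 at 24 h and -0.60 at 12 h, where 39 were nearer 0. The values at the time that chose the genes are large by that choice, so these medians are a description without a test.

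**Figure D3:**
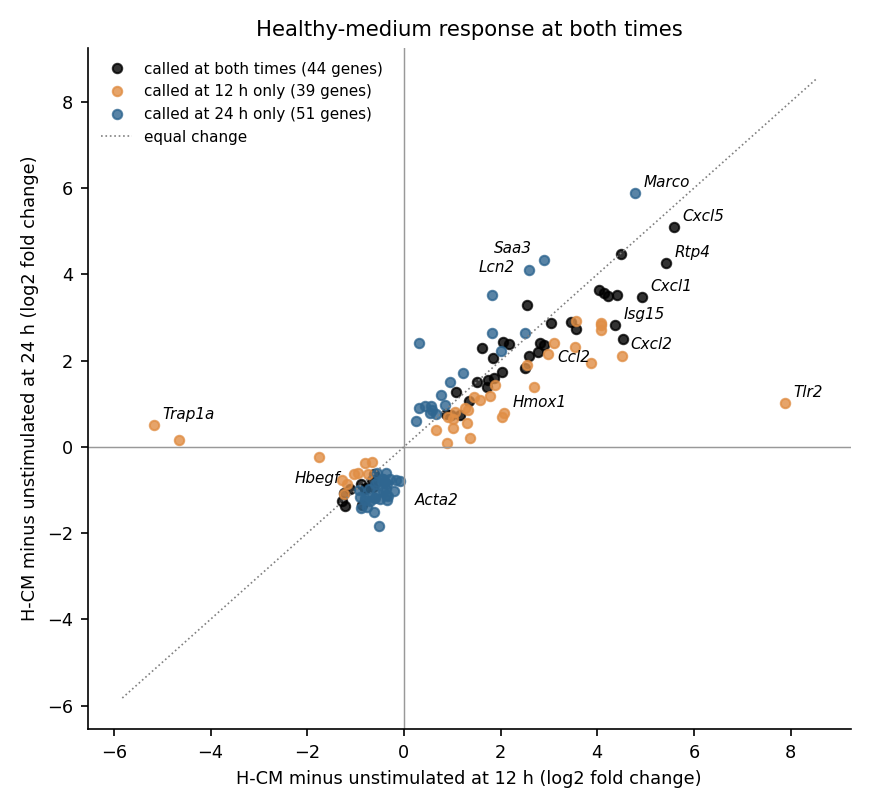
Log2 fold change of H-CM against unstimulated glia at 12 h (x axis) and 24 h (y axis) for the 134 genes called at either time, black for the 44 called at both; the dotted line marks equal change. Cxcl1, Cxcl2, Isg15 and Hmox1 lie below the line, and Saa3 and Lcn2 above it, but no gene's difference passed the threshold; Tlr2 is placed by a fitted value against a group at 0.

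Chemokines, led by Cxcl5 and Cxcl1, were among the genes with the largest response. Of 17 tested, 6 were called higher at 12 h (Ccl2, Ccl7, Cxcl1, Cxcl2, Cxcl5 and Cxcl10) and 4 at 24 h (Ccl2, Ccl7, Cxcl1 and Cxcl5), against 0.479% and 0.408% of all genes. Between 12 h and 24 h in H-CM glia, 12 of the 17 had a log2 fold change below 0, with a median of -0.33, while 48.8% of all genes were above 0, and Cxcl1 and Cxcl2 were lower at an unadjusted p under 0.05. In unstimulated glia 10 of the 17 were below 0, with a median of -0.28. Without the libraries that stood apart the medians were -0.55 in H-CM glia and 0.055 in unstimulated glia.

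Cxcl1, which attracts neutrophils, measured 73.4, 32.4, 24.7 and 23.6 CPM in H-CM glia at 12 h and 38.3, 11.6, 8.15 and 12.1 CPM at 24 h. Replicate 1 was the highest at both times, and through it the groups overlapped. Unstimulated glia held at most 3.54 CPM. Against them Cxcl1 was 30.3-fold higher at 12 h (adjusted p = 0.000930, edgeR) and 11.05-fold at 24 h (adjusted p = 0.00604), and the time change in H-CM glia was -1.12 (unadjusted p = 0.0349). Replicate 1 weighed on that change, which was -1.87 without its library of 24 h and -0.61 without that of 12 h.

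Cxcl2, its close relative, measured 35.7, 14.8, 6.82 and 8.55 CPM at 12 h and 6.71, 3.87, 1.18 and 3.85 CPM at 24 h, with every library of 24 h below those of 12 h. The change was -2.09 (unadjusted p = 0.00227, adjusted p = 0.466, edgeR; -1.38 without replicate 1 of 12 h), and the response was called at 12 h (log2 fold change 4.51) but not at 24 h (2.12, adjusted p = 0.271). Ccl2, which attracts monocytes, measured 515, 372, 231 and 348 CPM and then 540, 184, 104 and 150 CPM. It was called at both times, 7.496-fold higher at 12 h (adjusted p = 0.0133) and 5.15-fold at 24 h (adjusted p = 0.0380). Cxcl5 was called at both times with 5.59 and 5.10. In H-CM glia at 24 h its replicate 1 held 41.3 CPM and the next library 6.86 CPM. Of 8 fits that each left out 1 library of the groups compared, 4 lost the call of Cxcl5 at 12 h and 6 at 24 h. For Ccl2, 2 lost it at 12 h and 5 at 24 h. Without the libraries that stood apart Ccl2 missed the threshold at both times (adjusted p = 0.0773 and 0.0651), as did Cxcl5 (0.131 and 0.0797), while Cxcl1 was called at both (0.0288 and 0.0262).

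The promoters of Cxcl1 and Cxcl2 are shown because these chemokines had the lowest unadjusted p for a decline. They are at chr5:90890995-90891244 and chr5:90903649-90903898 on the plus strand, and capitals mark the NF-kB motif on either strand, that is GGG, any 2 bases and TTTCC.
Cxcl1: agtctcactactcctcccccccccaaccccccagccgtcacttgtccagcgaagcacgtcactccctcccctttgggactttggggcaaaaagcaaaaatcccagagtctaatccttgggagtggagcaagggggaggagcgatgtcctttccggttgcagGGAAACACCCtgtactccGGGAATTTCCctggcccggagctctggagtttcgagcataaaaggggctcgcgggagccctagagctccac
Cxcl2: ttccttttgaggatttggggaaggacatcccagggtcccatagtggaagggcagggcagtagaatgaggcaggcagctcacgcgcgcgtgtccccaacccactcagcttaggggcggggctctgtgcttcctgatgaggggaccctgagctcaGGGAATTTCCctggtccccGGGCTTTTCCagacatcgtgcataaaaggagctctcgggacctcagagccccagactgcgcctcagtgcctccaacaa
Each held the motif at 2 places. It was found in 3 of 11 chemokine promoters (27.3%) against 1.40% of all promoters. The 3 were those of Cxcl1 and Cxcl2, chosen here for their decline, and of Ccl9, while the promoter of Cxcl10 did not hold it. These matches describe letters in a window and are not evidence that a factor was bound, and a role of NF-kB in the decline was not tested.

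Saa3 and Lcn2, genes of the acute phase, had the opposite order of mean levels. Saa3, which codes for serum amyloid A, measured 755, 183, 67.2 and 98.5 CPM in H-CM glia at 12 h and 1735, 376, 212 and 261 CPM at 24 h. The groups overlapped widely, and replicate 1 was far above the others at each time. The time change was 1.23 (SE 0.77, adjusted p = 0.874, edgeR), but it was 0.046 without replicate 1 of 24 h and 2.48 without replicate 1 of 12 h. Against unstimulated glia, whose libraries held 27.6 to 42.0 CPM, Saa3 was 7.40-fold higher at 12 h (adjusted p = 0.267) and 20.3-fold higher at 24 h (adjusted p = 0.0450).

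Lcn2, lipocalin 2, which binds bacterial siderophores, measured 43.6, 9.97, 7.58 and 5.70 CPM and then 95.2, 20.1, 11 and 8.26 CPM. Its response was 2.58 at 12 h (adjusted p = 0.350) and 4.10 at 24 h (adjusted p = 0.0360), and its time change was 1.054 on the log2 scale. That change turned to -0.30 without replicate 1 of 24 h and was 2.13 without replicate 1 of 12 h. A call at 24 h and none at 12 h does not show that the responses of Saa3 and Lcn2 differed, since the test of the difference missed the threshold for both. Without the filter on low counts, a setting that hardly used a gene's own spread, the difference was called for Saa3 (1.47, adjusted p = 9.98e-05, edgeR). The calls at 24 h were also close to the threshold: of 8 fits that each left out 1 library of the groups compared, 7 lost that of Saa3 and 5 that of Lcn2, and without the libraries that stood apart Lcn2 had an adjusted p of 0.0746. Timp1, an inhibitor of matrix metalloproteases, had a time change of 0.11. Il6 was too low to be tested, with 0 to 4.39 CPM in the H-CM libraries.

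The highest H-CM library was mostly the one numbered replicate 1 at both times. Among the 80 genes called higher at either time, replicate 1 was the highest H-CM library for 57 (71.2%) at 12 h and for 68 (85%) at 24 h. Replicate 4 was the lowest for 44 and 43 of them. Whether a replicate number marks a shared culture or a shared batch of conditioned medium was not tested, since the labels do not say.

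Interferon-stimulated genes were another large group of the response at both times. Of 35 tested, 18 were called higher at 12 h (0.479% of all genes were), 15 at 24 h (0.408%) and 13 at both. Isg15, a ubiquitin-like protein, measured 23.1, 25.7, 64.4 and 13.5 CPM in H-CM glia at 12 h and 37.2, 27.4, 26.9 and 12.7 CPM at 24 h, which overlapped throughout. Unstimulated glia had 0.893 to 2.25 CPM at 12 h and 0.771 to 7 CPM at 24 h, so that the response was 20.7-fold at 12 h (adjusted p = 0.000930, edgeR) and 7.08-fold at 24 h (adjusted p = 0.00647). The list's median time change was -0.14 in H-CM glia and 0.32 in unstimulated glia. Rtp4, an interferon-induced chaperone of receptors, had a response of 5.42 at 12 h and 4.27 at 24 h. Without the libraries that stood apart, Rtp4 missed the threshold at 12 h (adjusted p = 0.0519).

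The promoter of Isg15 (chr4:156200819-156201068, minus strand) is shown as that of a gene called at both times, with the interferon element called ISRE in capitals on either strand, that is TTTC, any 2 bases and TTTC.
Isg15: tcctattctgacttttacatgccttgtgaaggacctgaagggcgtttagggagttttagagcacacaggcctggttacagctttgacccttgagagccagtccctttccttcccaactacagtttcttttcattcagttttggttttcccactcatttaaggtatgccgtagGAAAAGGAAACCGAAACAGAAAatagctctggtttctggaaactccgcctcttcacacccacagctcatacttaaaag
The motif was present at 3 overlapping places, and in 13 of 28 promoters of interferon-stimulated genes (46.4%) against 3.04% of all promoters. Such matches are not evidence that a factor was bound. Of 30 genes of NF-kB feedback and the acute phase, 4 were called higher at 12 h (0.479% of all genes were) and 4 at 24 h (0.408%). Nfkbia, an inhibitor of NF-kB, and Nfkbiz were called at both times. Tlr2, the receptor of bacterial lipoproteins, was at 0 in all unstimulated libraries of 12 h and had a mean of 6.14 CPM in H-CM glia, at least 5.64-fold higher against a floor of 3 counts per library. At 24 h it was not called.

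Among the lower genes, Tnfrsf11b and Prss23 were called at both times. Tnfrsf11b, the decoy receptor osteoprotegerin, measured 25.4, 38.3, 22.7 and 30.9 CPM in H-CM glia at 12 h and 24.0, 39.4, 22.7 and 26.4 CPM at 24 h, against 50.7 to 92.5 CPM in unstimulated glia. Its response was -1.22 at 12 h and -1.37 at 24 h, and the H-CM libraries of both times overlapped fully. Fstl3, an extracellular inhibitor of activin, was called with -1.24 at 12 h and -1.06 at 24 h.

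Some lower genes were called at 24 h and not at 12 h. Thy1, a surface protein of fibroblasts and neurons, had -0.61 at 12 h and -1.51 at 24 h (adjusted p = 0.460 and 0.00437, edgeR), with 32.2, 36.4, 51.0 and 44.6 CPM in H-CM glia at 12 h and 14.7, 22.5, 17.1 and 42.4 CPM at 24 h. Replicate 4 of 24 h lay within the range of 12 h. Bmp4, a bone morphogenetic protein, had -0.88 and -1.43 (adjusted p = 0.0891 and 0.00189). Bok, a relative of the cell death proteins of the Bcl2 family, was called at 12 h and not at 24 h, with -1.29 and -0.77 (adjusted p = 0.00708 and 0.174), and its H-CM libraries went from 7.90, 7.86, 11.6 and 7.76 CPM to 13.8, 18.5, 13.4 and 17.1 CPM without overlap. When the libraries that stood apart were left out, Bok was called at 24 h too (adjusted p = 0.0456). The difference between both times did not pass the adjusted threshold for any of these genes.

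Transcripts of smooth muscle were lower in H-CM glia than in unstimulated glia at 24 h, while those of H-CM glia differed little between the times. Of 14 markers tested, none was called at 12 h, when 0.173% of all genes were called lower. At 24 h 8 were called lower (Acta2, Actg2, Tagln, Cnn1, Myl9, Mylk, Des and Tpm2), against 0.338% of all genes. At 12 h 12 of the 14 were below 0 and at 24 h 13 were, while 50.1% and 50% of all genes were above 0. The median time change was -0.04 in H-CM glia and 0.52 in unstimulated glia, where 13 of 14 were above 0 and none was called by edgeR with all libraries. The summed level went from 7931 to 8738 CPM at 12 h to 11337 to 13427 CPM at 24 h in unstimulated glia. In H-CM glia it was 5037 to 7567 CPM and then 5411 to 7072 CPM, under the unstimulated range at each time. These genes code for contractile proteins and mark smooth muscle or myofibroblasts in the culture, and the part of cell composition in their difference was not tested.

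Acta2, alpha smooth muscle actin, measured 3088, 3668, 2794 and 2580 CPM in H-CM glia at 12 h and 2662, 3234, 2685 and 2923 CPM at 24 h, which overlapped. Unstimulated glia had 3686, 3960, 3933 and 4139 CPM at 12 h and 5955, 6581, 6478 and 5943 CPM at 24 h, with no overlap. The time change was -0.08 in H-CM glia and 0.67 in unstimulated glia, and their difference was -0.74 with the lowest unadjusted p of the difference among all genes tested (0.000481, adjusted p = 0.999955, edgeR). H-CM glia had 2.17-fold less Acta2 than unstimulated glia at 24 h (adjusted p = 7.09e-05) and 1.30-fold less at 12 h (adjusted p = 0.322).

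**Figure D4:**
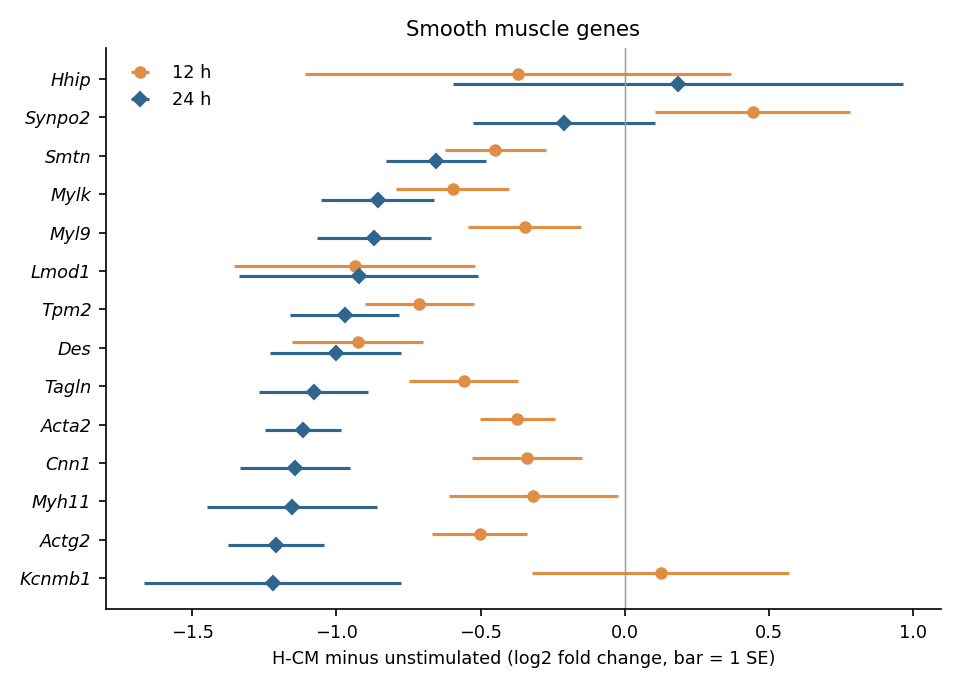
Log2 fold change of H-CM against unstimulated glia for 14 smooth muscle markers at 12 h (circles) and 24 h (diamonds), with bars of 1 standard error. At 24 h 8 of the 14 were called lower (0.338% of all genes were), among them Acta2 at -1.12, and at 12 h none was (0.173%).

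The test of the difference, which asks of each gene whether its response to H-CM grew or faded from 12 h to 24 h beyond the change in unstimulated glia, called no gene in edgeR (0 of 12732, 0%) or in DESeq2. At an unadjusted p under 0.05 it had 123 higher genes (0.966%) and 186 lower (1.46%). Together these 309 genes were fewer than that threshold lets through on average where no gene changes. The median standard error of the difference was 0.41. The 5 genes of lowest p in each direction with at least 5 CPM in a group, all short of the adjusted threshold, were Trap1a, Anks1, Rab3il1, Spp1 and Srsf10 with larger values in H-CM glia and Acta2, Utp18, Pop5, Asns and Tlr2 with smaller ones. Trap1a rested on few counts, with 0 to 0.383 CPM in H-CM glia at 12 h and 0.447 to 18.9 CPM in unstimulated glia at that time. Spp1, which codes for the secreted protein osteopontin, went from 128, 97.0, 113 and 149 CPM to 221, 161, 141 and 188 CPM in H-CM glia and from 178, 141, 125 and 173 CPM to 184, 108, 88.0 and 104 CPM in unstimulated glia, and the groups overlapped in both. Asns, asparagine synthetase, went from 63.8, 52.5, 73.2 and 65.5 CPM to 38.3, 54.0, 57.3 and 40.2 CPM in H-CM glia, with overlap. In unstimulated glia it went from 57.9, 59.1, 55.1 and 59.1 CPM to 88.4, 82.8, 71.1 and 67.8 CPM, without overlap.

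Genes of sterol synthesis and uptake, which cells adjust to their cholesterol supply, had a log2 fold change below 0 from 12 h to 24 h in 26 of 29 cases in H-CM glia, with a median of -0.36, while 48.8% of all genes were above 0. Of these, 10 had an unadjusted p under 0.05 (3.38% of all genes were lower so), and none was called. The median was -0.0039 in unstimulated glia. Msmo1, an enzyme of cholesterol synthesis, measured 137, 119, 196 and 141 CPM at 12 h and 89.6, 99.4, 94.4 and 105 CPM at 24 h, with no overlap (-0.61, adjusted p = 0.409, edgeR). Hmgcs1, an early enzyme of the pathway, measured 254, 239, 263 and 249 CPM and then 171, 186, 205 and 193 CPM, again with no overlap (-0.41, adjusted p = 0.648). For Msmo1 and Hmgcs1 the highest library of 12 h was the one that stood apart. Without it and replicate 2 of unstimulated glia at 12 h the median of the list was -0.34, with 8 genes at an unadjusted p under 0.05.

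The 13 mitochondrially encoded transcripts were below 0 in H-CM glia in all cases, with a median of -0.31 and 4 lower at an unadjusted p under 0.05, against 48.8% of all genes above 0 and 3.38% lower at such a p. The median was -0.06, and 1 had such a p, when the libraries that stood apart were left out. For mt-Atp8 replicate 3 of 12 h held 137 CPM and the other 7 H-CM libraries 27.0 to 38.7 CPM. Of 24 genes of NRF2 and the antioxidant response, 20 were below 0 with a median of -0.13, and 7 were lower at an unadjusted p under 0.05 (the same shares over all genes apply), among them Txnrd1, thioredoxin reductase (278, 190, 247 and 179 CPM, then 168, 166, 129 and 122 CPM, with no overlap).

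The 18 markers of enteric glia that were tested had a median time change of -0.01 in H-CM glia, and none was called in any comparison. S100b, Gfap and Sox10, markers of these cells, had changes of 0.19, 0.21 and -0.09. Clock genes had a median of 0.31 in H-CM glia and 0.23 in unstimulated glia, with none called. Without the libraries that stood apart these medians were 0.16 and 0.12. Dbp and Arntl, which act in opposite phases of the clock, had 0.51 and -0.17 in H-CM glia, and Arntl had 0.0026 without replicate 4 of 24 h. In unstimulated glia the level at 24 h was 1.46-fold that of 12 h for Dbp and 0.486-fold for Arntl. Nog, an inhibitor of bone morphogenetic proteins that glia and muscle of the gut express, had -0.09.

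**Figure D5:**
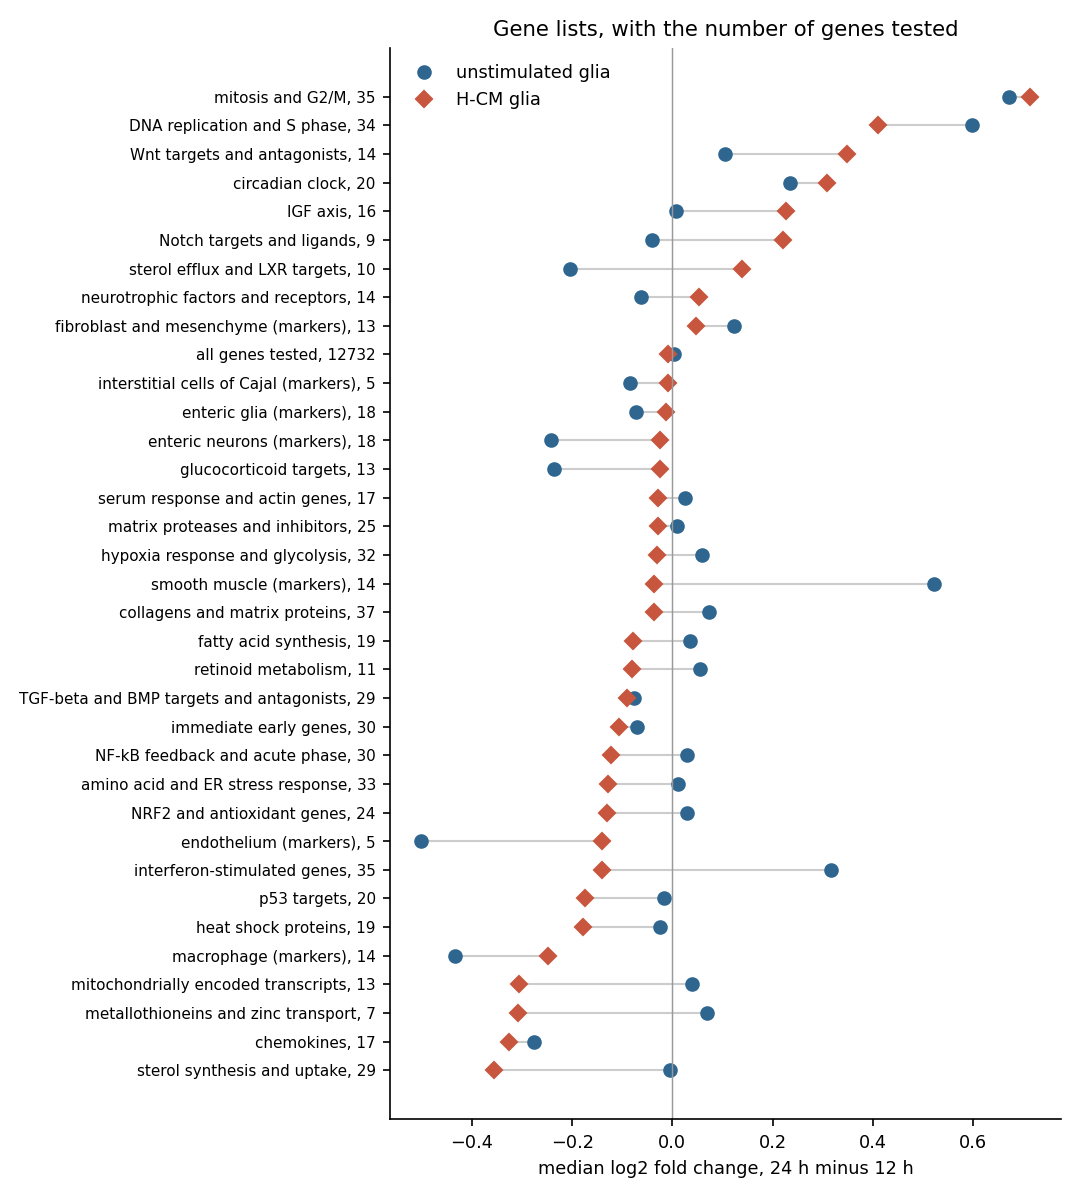
Median log2 fold change from 12 h to 24 h of each gene list in unstimulated glia (circles) and H-CM glia (diamonds), with the number of genes tested beside its name. Both cell-cycle lists are the highest in both media, smooth muscle lies at 0.52 in unstimulated and -0.04 in H-CM glia, and sterol synthesis is the lowest in H-CM glia at -0.36.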

How the data were processed

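RNA was extracted from EGCs, and 3′ mRNA libraries were sequenced. Per the study's methods the authors removed adapters, used HISAT2 for alignment to mm10, dropped multi-mapping reads and deposited counts per gene, made with HT-seq Count and not normalized. The annotation, the strand setting and the use of molecular identifiers are not given in the sources used here, so overlapping genes may share counts. Counts were fitted in R 4.3.3 with edgeR 4.0.16: genes were kept by filterByExpr (minimum count 10), scaled with TMM, and tested by a robust quasi-likelihood fit with 1 mean per group over 16 libraries. P-values were adjusted by Benjamini-Hochberg over 12732 genes and called under 0.05. CPM values use TMM library sizes. DESeq2 1.42.0 was an alternative, as were other scalings, filters and library sets. The procedure was tested on simulated data. Named genes were the called genes of largest change without overlap and of at least 5 CPM (up to 12 per direction; up to 6 for each medium response), the 5 of lowest p in each direction of the difference, and a fixed set; others were chosen after their values were seen, and some genes are not reported here. The comparisons, members and gene lists were chosen with earlier results of these data known. Counting error sets a floor of 3 counts per library.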

Additional observations from a re-analysis of the deposited data

Results flagged for a closer look

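Dixon's criterion marks about 1 in 20 groups of independent, normally distributed values. The groups checked here share libraries and hold CPM values or measures of the libraries, so their share cannot be set against that rate. The criterion was applied to 236 groups of 4 libraries, over the named genes and over total counts, genes detected and the share of Yam1. Of these, 21 (8.9%) held a library far from the other 3, all of them for named genes. In H-CM glia at 24 h replicate 1 was far above the others in 7 of them, for Saa3 (1735 CPM), Timp1 (278), Fzd2 (172), Lcn2 (95.2), Cxcl5 (41.3), Cxcl1 (38.3) and Sprr2b (33.5). In H-CM glia at 12 h replicate 1 was far above the others for Saa3 (755 CPM), Timp1 (224), Sprr2b (57.6) and Lcn2 (43.6). At that time replicate 3 was far from the others for Dbp (36.4 CPM) and Bok (11.6), and replicate 2 was far below for Sprr2k (4.22).

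In unstimulated glia at 12 h replicate 1 was far below the others for Siglecg (26.4 CPM) and replicate 2 far below for Skil (45.5). At 24 h replicate 1 was far from the others for Bok (21.2 CPM) and Cxcl2 (1.90), replicate 3 for Lcn2 (2.62), and replicate 4 for Sox10 (88.3) and Marco (0.404). What sets these libraries apart was not tested.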

How the results depend on the processing

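Counts of called genes are given in the order H-CM 24 h against 12 h, unstimulated 24 h against 12 h, their difference, H-CM against unstimulated at 12 h and the same at 24 h; the fit over 16 libraries called 1, 0, 0, 83 and 95. Without a filter on low counts edgeR called 56, 42, 10, 260 and 194, and the 10 included Saa3 and Hmox1. Of the 56, 54 pass the filter, and the median prior degrees of freedom were 11.9 with the filter and infinite without it, so that without it a gene's own spread was hardly used. DESeq2 called 19, 25, 0, 157 and 184. Fits on the 8 libraries compared called 0, 2, 28 and 280, where the difference has no fit, and one on all 36 libraries called 0, 0, 0, 35 and 34. With 24 libraries the unstimulated comparison called 2. With the share of Yam1 as a covariate the H-CM comparison called 0. Without both libraries that stood apart, chosen after seeing the data, the counts were 7, 7, 0, 60 and 228. Leaving out 1 library at a time gave 0 to 2, 0 to 1, 0, 42 to 95 and 46 to 71. The 42 came without replicate 3 of unstimulated glia at 12 h (48 without its replicate 4, 52 without replicate 1 of H-CM glia at 12 h). The 46 came without replicate 1 of H-CM glia at 24 h (58 without its replicate 2, and 52, 53 and 57 without replicates 2, 3 and 4 of unstimulated glia at 24 h). The cause of these shifts was not tested. No named gene's called change turned direction. With the replicate number as a block the counts were 0, 0, 0, 79 and 111. Same-numbered H-CM libraries of both times correlated at 0.056 to 0.191 in their deviations, under the limit that would pair them, though each of the 8 correlated best with its own number, a hint from the data and not from the design. Depth limits the genes under 20 CPM, whose median standard error was 0.47 against 0.21 above.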
